A study of Mus musculus with 18 samples.

Results

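Scavenger receptors are surface or secreted proteins that bind modified lipoproteins, bacterial products and dying cells, and they are best known from macrophages. Their families differ in fold and are named by class. Marco and Msr1 are of class A, whose collagen-like stalks bind bacteria and modified low-density lipoprotein. Cd36 and Scarb1 are of class B, which take up fatty acids, oxidised lipoprotein and cholesterol esters. Cd68 is the mainly endosomal member of class D, Olr1 is LOX-1 of class E, a lectin-like receptor for oxidised low-density lipoprotein, and Stab1 is stabilin-1 of class H. Cd163, of class I, is the receptor for haptoglobin-haemoglobin complexes, and Cd5l is a secreted relative of it with the same type of cysteine-rich domain. The 9 genes were taken by name, as the rows whose Ensembl identifier, without its version, belongs to one of these symbols, and each was found once among the 54446 genes of the table.

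Their transcripts were examined in 18 RNA sequencing libraries of peritoneal eosinophils from Il5Tg mice, which carry an Il5 transgene and make very many eosinophils, so that the cells came from an IL-5-rich animal. The labels give the strain as C57BL/6. Every library, controls included, came from eosinophils cultured with apoptotic cells (ACs), which were wild-type thymocytes killed with dexamethasone, and eosinophils without ACs are not analysed here. By the study's methods, T and B cells had been depleted with anti-Thy1.2 and anti-B220 beads, the eosinophils met an excess of ACs overnight, and they were collected afterwards with anti-Siglec-F beads. In the Type 1 experiment, 12 libraries came from cells given ACs alone, or ACs together with E. coli, with IFN-γ or with both of these (IFN-γ + E. coli + ACs, called the combination). The IL-4 experiment added 6 libraries, from cells with ACs alone or IL-4 + ACs, and each group holds 3 libraries. The labels number the replicates without saying whether they came from separate mice. The study's methods call its replicates biological, and it describes each lane of a plot of cultures with ACs as cells of a different mouse, but it does not say so for each library here. The p-values measure the spread between these libraries, part of which may be technical. The questions asked were how a Type 1 stimulus (IFN-γ, E. coli) or a Type 2 stimulus (IL-4) changes these transcripts in cells that meet ACs. The values are the authors' normalized counts, which are reads per gene divided by a size factor of the library.

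Reads on genes numbered 779421 to 7782072 per library. The shallowest were those of replicate 3 in the IL-4 experiment, with 779421 reads for ACs alone and 849705 for IL-4 + ACs, so that 1 read there stood for a normalized count of 5.36 or 5.14. Of the 12 eosinophil markers examined, Siglecf and Ccr3 were high in every library, at 1514 to 3367 and 2623 to 4934. Among the granule protein transcripts, Epx and Prg3 stayed at 0 to 25.7 and 0 to 26.8, and Prg2 was at 57.5 to 270. Between groups, 5 of the 9 eosinophil markers tested were lower with IFN-γ + ACs and none higher, beside 9.96% and 11.4% of all genes. The count of none is limma's, with 1 higher at an unadjusted p under 0.05 and 0 in edgeR and DESeq2. Among the lower were Siglecf (-0.99 ± 0.1) and Il5ra (-0.71 ± 0.16). E. coli + ACs gave 2 higher and 1 lower (5.05% and 5.25% of all genes), and the combination 1 higher and 2 lower (14.7% and 17.2%). IL-4 + ACs gave 2 of 12 higher (0.74%). The summed eosinophil list was 25654 to 26529 for ACs alone in the Type 1 experiment and 35233 to 37697 for E. coli + ACs. With IFN-γ + ACs this sum was 21171 to 24126, and with the combination 34992 to 39839. This sum was higher where the macrophage sum was lower, but Csf2rb was a large part of it. Mean Csf2rb was 8381 for ACs alone, 17407 for E. coli + ACs, 11451 for IFN-γ + ACs and 20511 for the combination. In the same order, mean Ccr3 was 3275, 4254, 2974 and 4498, and mean Siglecf was 3237, 2640, 1630 and 1922. The eosinophil sum without Csf2rb was not examined. Markers of macrophages were also present in every library, and 13 of 14 had a mean of at least 10 over all libraries, the exception being Cd209b. Among them the complement transcript C1qc ranged from 2138 to 14355 and Timd4, a marker of resident peritoneal macrophages, from 31.9 to 314. The summed macrophage list differed between groups, with 27611 to 36257 for ACs alone in the Type 1 experiment, 17180 to 22489 for E. coli + ACs, 42946 to 53604 for IFN-γ + ACs and 18035 to 20068 for the combination. It was 40982 to 66106 for ACs alone in the IL-4 experiment and 31612 to 54165 for IL-4 + ACs. Since the samples are bulk RNA, fewer cells of a type and less RNA per cell cannot be told apart. The summed lists for thymocytes (57.9 to 243), neutrophils (5.14 to 43.1) and mast cells (5.64 to 67.6) were low throughout, that for dendritic cells was 220 to 603, and that for B cells in the Type 1 experiment was 902 to 1043 with ACs alone and 97.6 to 183 with IFN-γ + ACs. The part that macrophage RNA has in the results for the scavenger receptors was not tested, and their levels are also given relative to the macrophage sum.

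All positions are in GRCm38. Marco (ENSMUSG00000026390.7) lies on chromosome 1 from 120474538 to 120505024, Msr1 (ENSMUSG00000025044.16) on chromosome 8 from 39581685 to 39642673, Cd36 (ENSMUSG00000002944.15) and Scarb1 (ENSMUSG00000037936.15) on chromosome 5 from 17781690 to 17888801 and from 125277087 to 125341094, and Cd68 (ENSMUSG00000018774.13) on chromosome 11 from 69664213 to 69666153. Olr1 (ENSMUSG00000030162.14) and Cd163 (ENSMUSG00000008845.9) lie on chromosome 6 from 129485244 to 129507165 and from 124304656 to 124330527, Stab1 (ENSMUSG00000042286.13) on chromosome 14 from 31139013 to 31168641, and Cd5l (ENSMUSG00000015854.7) on chromosome 3 from 87357881 to 87371073. An exon of Stab1 overlaps one of Nt5dc2 on the opposite strand, and the sources used here do not state whether counting used strand, so its values may include reads of that gene.

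The 250 bases before the start of transcription were read from RefSeq (GRCm38.p6) for 7 of the 9 genes, those of Marco, Cd36, Cd68, Olr1, Stab1, Cd163 and Cd5l. The window of Cd36, from 17835897 to 17836146 on chromosome 5, lies before a start inside the gene span of 17781690 to 17888801. The outermost start of that gene was not searched. They were searched on both strands for motifs of factors downstream of the stimuli: GAS (TTCNNNGAA), the STAT6 site N4, the core of the interferon-stimulated response element, a 9-letter NF-kB pattern (GGGNNTTCC), AP-1 (TGANTCA), PU.1 (AGGAAGT) and the antioxidant response element (TGACNNNGC), none of which is contained in another. NF-kB sites of another length or spacing were not searched for. An AP-1 motif began 149 and 24 bases before the start of Cd68 and 60 bases before that of Olr1, and 6.7% of the 32851 promoters searched hold one. The only other match was an N4 motif 250 bases before the start of Cd5l, a motif held by 5.9% of promoters, and none of these motifs is in the windows of Marco, Cd36, Stab1 and Cd163. A match describes letters and shows no binding. The windows of Marco, the member with the most opposed changes, and of Olr1 and Cd68, which share the AP-1 letters and moved in opposite directions, are shown 5′ to 3′ on the minus strand, at chr1:120505025-120505274, chr6:129507166-129507415 and chr11:69666171-69666420, with AP-1 matches in capitals.
Marco: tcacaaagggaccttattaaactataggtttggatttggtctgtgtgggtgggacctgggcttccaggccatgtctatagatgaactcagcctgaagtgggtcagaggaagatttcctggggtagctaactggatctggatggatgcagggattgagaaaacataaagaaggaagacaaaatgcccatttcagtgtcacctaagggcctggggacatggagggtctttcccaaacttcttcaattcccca
Olr1: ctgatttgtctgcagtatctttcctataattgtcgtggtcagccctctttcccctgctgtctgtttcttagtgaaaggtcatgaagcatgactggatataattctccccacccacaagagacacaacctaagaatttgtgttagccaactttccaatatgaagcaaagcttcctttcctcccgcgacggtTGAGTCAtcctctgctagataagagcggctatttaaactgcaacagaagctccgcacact
Cd68: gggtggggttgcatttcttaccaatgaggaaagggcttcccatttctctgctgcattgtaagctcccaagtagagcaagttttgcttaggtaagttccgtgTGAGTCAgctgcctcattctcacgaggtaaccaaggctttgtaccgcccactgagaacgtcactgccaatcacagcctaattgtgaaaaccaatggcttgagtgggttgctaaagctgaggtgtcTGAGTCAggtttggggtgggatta

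The threshold was an adjusted p under 0.05 (Benjamini-Hochberg, over all genes tested) together with a change of at least 1.5-fold, in limma fits on log2 of the normalized count plus 1. Only genes with a mean of at least 10 were tested, which left out Scarb1, with a mean of 9.998, in the Type 1 experiment. With E. coli + ACs, 1 of 8 members tested was higher than with ACs alone (Olr1), against 5.05% of all genes, and 3 were lower (Cd36, Cd68 and Cd163), against 5.25%. With IFN-γ + ACs, Marco was higher, where 11.4% of all genes were, and Cd163 lower, where 9.96% were. The combination moved 7 of 8 members. With IFN-γ + E. coli + ACs, Marco and Olr1 were higher, against 14.7% of all genes, and 5 (Msr1, Cd36, Cd68, Cd163 and Cd5l) were lower, against 17.2%. With IL-4 + ACs, Marco alone of 9 members was lower, against 0.347% of all genes, and none was higher, against 0.74%. At an unadjusted p under 0.05, limma gave 1 higher member with IL-4 + ACs, and edgeR and DESeq2 each called 1 (Olr1). The 3 Type 1 comparisons share their ACs libraries. The median log2 change over the members tested was 0.33 with IFN-γ + ACs, -0.67 with E. coli + ACs, -1.26 with the combination and -0.35 with IL-4 + ACs, beside medians over all genes of 0, 0, -0.05 and -0.01.

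**Figure D1:**
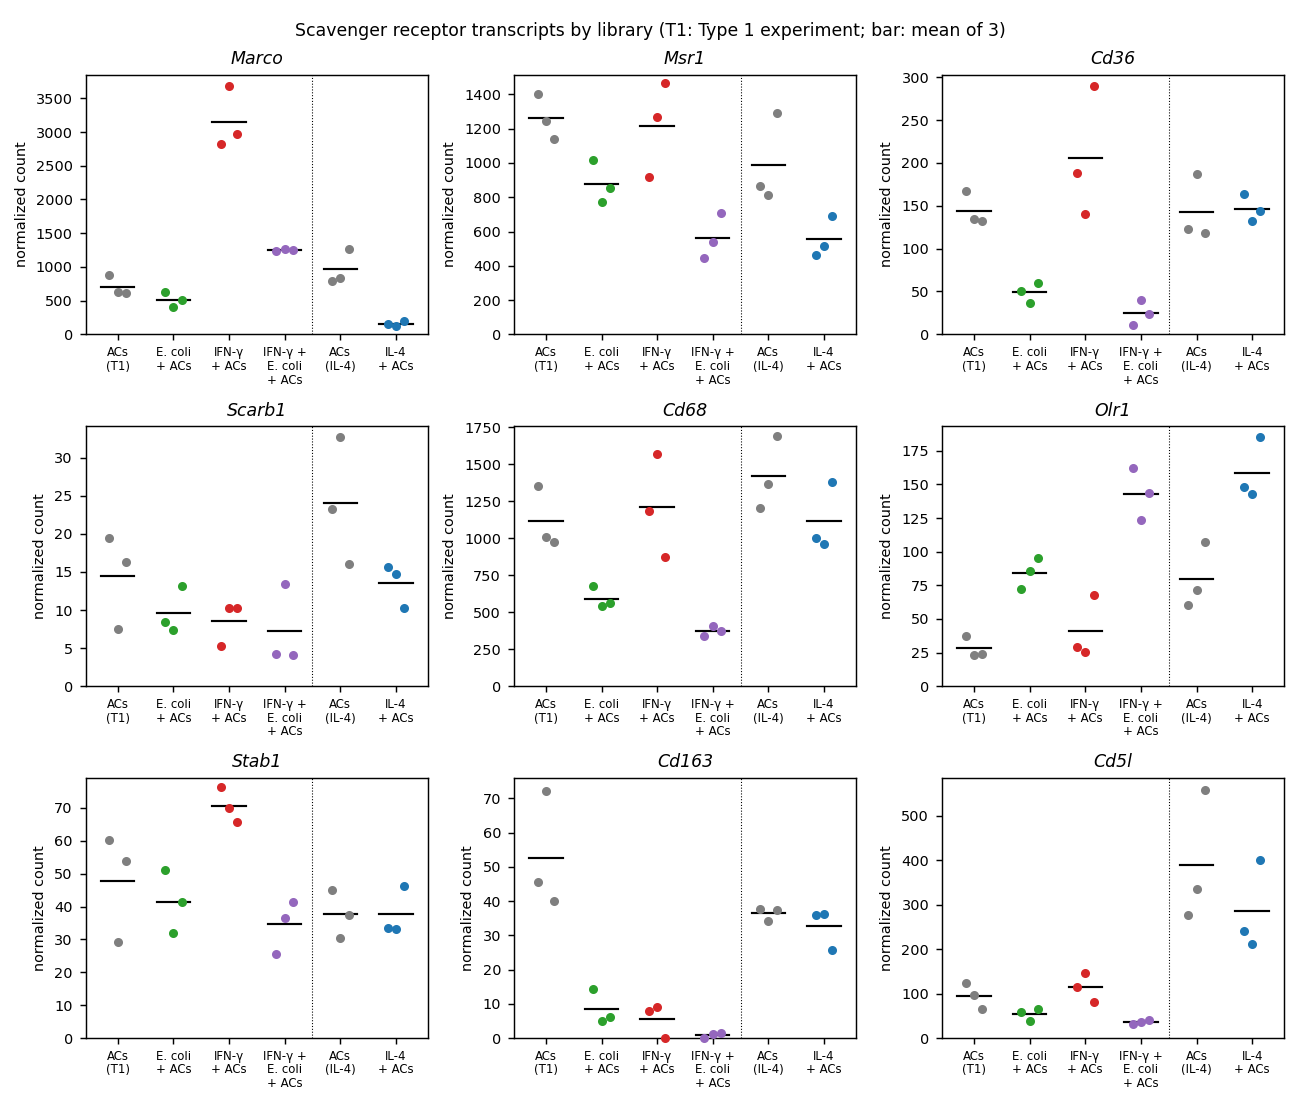
Normalized counts of the 9 scavenger receptor transcripts (vertical axes, each from 0) in each of 18 libraries by group (horizontal axes), with replicates 1, 2 and 3 from left to right, a bar at the mean of 3, and a dotted line between the Type 1 and the IL-4 experiment. Marco is at 2824 to 3676 with IFN-γ + ACs, above the 619.8 to 873 of its ACs controls, and at 129 to 190.2 with IL-4 + ACs, below the 795 to 1265 of the ACs controls of that experiment, and Cd163 is at 0 to 1.38 with IFN-γ + E. coli + ACs.

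Marco, the macrophage receptor with collagenous structure that binds bacteria and particles, stood at 873, 628 and 619.8 with ACs alone in replicates 1 to 3, at 2824, 3676 and 2965 with IFN-γ + ACs, at 1236, 1259 and 1246 with the combination and at 625, 405 and 509 with E. coli + ACs. Every library with IFN-γ was above every library without it, and those with E. coli + ACs overlapped ACs alone. The rise with IFN-γ + ACs was 2.17 ± 0.16 on the log2 scale (SE, limma, adjusted p = 4.6e-09), and that with IFN-γ + E. coli + ACs was 0.84 ± 0.16 (adjusted p = 0.00033). In the IL-4 experiment Marco was at 795, 833 and 1265 with ACs alone and at 159, 129 and 190.2 with IL-4 + ACs. The groups were far apart, with a log2 change of -2.58 ± 0.22 (limma, adjusted p = 0.0004). The difference from ACs alone with E. coli + ACs was -0.47 (95% interval -0.8 to -0.13, adjusted p = 0.058).

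Msr1, the macrophage scavenger receptor SR-A, was measured at 1401, 1247 and 1141 with ACs alone, 915, 1271 and 1465 with IFN-γ + ACs, 1015, 773 and 852 with E. coli + ACs and 443, 539.9 and 708 with the combination. The libraries with the combination were the lowest and lay apart from all others, and Msr1 fell by 1.18 on the log2 scale with it (SE 0.18, limma, adjusted p = 2.7e-05). With E. coli + ACs the change was -0.53 (95% interval -0.89 to -0.16, adjusted p = 0.055), and with IFN-γ + ACs it was -0.08 (-0.44 to 0.29, adjusted p = 0.8). The IL-4 experiment gave 865, 816 and 1292 with ACs alone and 463, 514 and 689 with IL-4 + ACs. These groups did not overlap, but the change of -0.82 ± 0.21 had an adjusted p of 0.15 in limma. It was past the threshold under 6 of 16 alternatives, among them edgeR on the reads (adjusted p = 0.036), DESeq2 (0.0046) and the fit without the shallow replicate 3 libraries (0.0016).

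Cd36, a fatty acid translocase that also binds oxidised lipoprotein and apoptotic cells, was at 167, 134 and 132 with ACs alone, 189, 141 and 289 with IFN-γ + ACs, 51.1, 36.0 and 59.8 with E. coli + ACs and 11.4, 40.3 and 23.5 with the combination. All libraries with E. coli were below all libraries without it, and the range with IFN-γ + ACs overlapped that with ACs alone. Cd36 fell by 1.56 on the log2 scale with E. coli + ACs (SE 0.34, limma, adjusted p = 0.0042) and by 2.64 with the combination (SE 0.34, adjusted p = 6.3e-06). With IL-4 + ACs it was at 163, 132 and 144, beside 123, 188 and 118 with ACs alone. The groups overlapped, with a change of 0.07 and a 95% interval from -0.43 to 0.56.

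Scarb1, which takes up cholesterol esters from high-density lipoprotein, rested on 2 to 42 reads per library. Its normalized counts were 7.51 to 19.5 with ACs alone, 7.36 to 13.2 with E. coli + ACs, 5.28 to 10.3 with IFN-γ + ACs and 4.14 to 13.4 with the combination, and the 4 ranges overlapped. With IL-4 + ACs it was at 15.6, 14.8 and 10.3, and with ACs alone in that experiment at 23.3, 32.7 and 16.1. The groups lay side by side without overlap, but the library nearest the other group (16.1) held only 3 reads, and the change of -0.75 ± 0.48 had an adjusted p of 0.66. A change of Scarb1 was not detectable at this depth.

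Cd68, the macrosialin of late endosomes and lysosomes that is widely used to stain macrophages, was at 1354, 1009.8 and 978 with ACs alone, 1187, 1571 and 876 with IFN-γ + ACs, 675, 541 and 560.3 with E. coli + ACs and 336, 404 and 373 with the combination. The libraries with E. coli were lower than all without it, and those with the combination were the lowest of all. Cd68 fell by 0.9 on the log2 scale with E. coli + ACs (SE 0.18, limma, adjusted p = 0.0016) and by 1.57 with IFN-γ + E. coli + ACs (SE 0.18, adjusted p = 9.7e-07). With IFN-γ + ACs the change was 0.1 (95% interval -0.27 to 0.47). The IL-4 experiment gave 1205, 1364 and 1689 with ACs alone and 1003, 962 and 1383 with IL-4 + ACs, overlapping groups with a change of -0.35 (-0.75 to 0.04, adjusted p = 0.56).

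Olr1 moved against most of the others. It was at 37.4, 23.5 and 23.7 with ACs alone, 29.0, 25.2 and 67.7 with IFN-γ + ACs, 72.0, 85.8 and 95.0 with E. coli + ACs and 163, 123 and 143 with the combination. Every library with E. coli was above every library without it. Olr1 rose by 1.57 ± 0.31 on the log2 scale with E. coli + ACs (limma, adjusted p = 0.0016) and by 2.33 ± 0.31 with the combination (adjusted p = 7.5e-06). With IFN-γ + ACs the change was 0.41 (95% interval -0.24 to 1.05), and it was -0.02 without the IFN-γ library at 67.7. In the IL-4 experiment the values were 60.2, 71.6 and 107 with ACs alone and 148, 143 and 185 with IL-4 + ACs. All IL-4 libraries were higher, and the change of 1.02 ± 0.25 had an adjusted p of 0.14 in limma, 0.016 in edgeR, 0.013 in DESeq2 and 0.0033 without the replicate 3 libraries.

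Stab1, an endocytic receptor for acetylated lipoprotein and for the matrix protein SPARC, passed no test against ACs alone. It was at 60.2, 29.1 and 53.8 with ACs alone, 76.5, 69.9 and 65.7 with IFN-γ + ACs, 51.1, 31.9 and 41.3 with E. coli + ACs and 25.7, 36.7 and 41.4 with the combination. The IFN-γ + ACs libraries were above all others of the experiment, with a change from ACs alone of 0.62 (95% interval 0 to 1.24, limma, adjusted p = 0.13). Libraries with IL-4 + ACs gave 33.6, 33.2 and 46.3, and their ACs controls 45.1, 30.4 and 37.5. The change there was 0, with an interval from -0.7 to 0.71.

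Cd163 rested on few reads after each Type 1 stimulus. With ACs alone it was at 45.5, 72.3 and 40.0, at 14.2, 4.91 and 6.16 with E. coli + ACs, at 7.91, 9.17 and 0 with IFN-γ + ACs, and with the combination at 0, 1.22 and 1.38. All stimulated libraries lay below all libraries with ACs alone. The reads were 182 in all with ACs alone, and 30, 14 and 2 with the 3 stimuli, which gave ratios to ACs alone of 0.163 (95% interval 0.107 to 0.241), 0.128 (0.0686 to 0.22) and 0.0172 (0.00207 to 0.0632), by an exact conditional binomial interval that covers counting error only. The log2 changes on the scale of the normalized count plus 1 were -2.59 ± 0.79 with E. coli + ACs (limma, adjusted p = 0.035), -3.53 ± 0.79 with IFN-γ + ACs (adjusted p = 0.0022) and -4.9 ± 0.79 with the combination (adjusted p = 6.4e-05), and these depend on the added 1. The call with E. coli + ACs was lost when any one of the ACs libraries or E. coli replicate 2 or 3 was left out, with adjusted p from 0.084 to 0.15, and also with no filter on low values (0.071). With IL-4 + ACs Cd163 was at 35.9, 36.4 and 25.7, beside 37.6, 34.3 and 37.5 with ACs alone. These groups overlapped, with a change of -0.17 and an interval from -0.87 to 0.53.

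Cd5l, the secreted protein also called AIM that binds CD36 and acts in macrophage lipid handling, was at 124, 97.6 and 65.2 with ACs alone, 115, 147 and 80.0 with IFN-γ + ACs, 59.4, 37.6 and 64.2 with E. coli + ACs and 31.4, 36.7 and 40.0 with the combination. The libraries with the combination were below all with ACs alone, and Cd5l fell by 1.34 on the log2 scale (SE 0.28, limma, adjusted p = 0.00086). With E. coli + ACs the change was -0.81 (95% interval -1.39 to -0.22, adjusted p = 0.065 in limma, 0.034 in edgeR and 0.03 in DESeq2). With ACs alone the IL-4 experiment gave 277, 334 and 558, and with IL-4 + ACs 242, 212 and 401. The groups overlapped, with a change of -0.44 (-1.1 to 0.21).

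**Figure D2:**
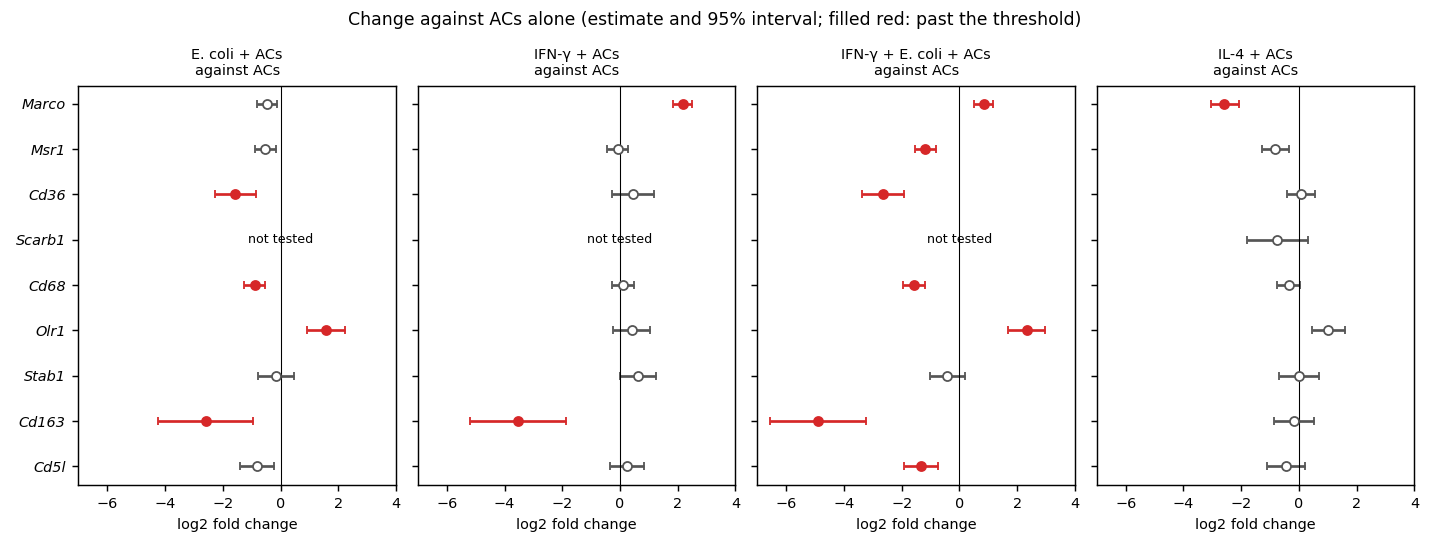
Log2 fold change against ACs alone of the same experiment (horizontal axes) for each of the 9 members (vertical axis) in 4 comparisons, with limma's 95% intervals as bars, filled red where past the threshold. Marco is past it to the right with IFN-γ + ACs (2.17) and to the left with IL-4 + ACs (-2.58), Olr1 is to the right in both comparisons with E. coli, and Scarb1 was not tested in the Type 1 experiment.

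Between the stimuli of the Type 1 experiment, most members were lower where E. coli was added to IFN-γ. Against IFN-γ + ACs, the combination was past the threshold for 7 of 8 members, against 14.6% of all genes, with Olr1 higher by 1.92 ± 0.31 and Marco (-1.33 ± 0.16), Msr1 (-1.11 ± 0.18), Cd36 (-3.1 ± 0.34), Cd68 (-1.67 ± 0.18), Stab1 (-1.04 ± 0.29) and Cd5l (-1.6 ± 0.28) lower. Their adjusted p-values in limma ran from 2.6e-06 for Cd68 to 0.018 for Stab1, and the call for Stab1 was lost without the first IFN-γ + ACs library (0.058) or the first library with the combination (0.082). Same-numbered libraries of these 2 groups deviated together, and with the replicate number as a block in a fit of their 6 libraries, 7 members were again past the threshold.

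Against E. coli + ACs, the combination was past the threshold for 5 of 8 members, against 19.4% of all genes. Marco was higher by 1.3 ± 0.16 (limma, adjusted p = 6.3e-06), and Msr1 (-0.66 ± 0.18), Cd36 (-1.07 ± 0.34), Cd68 (-0.67 ± 0.18) and Cd163 (-2.31 ± 0.79) were lower, with adjusted p-values of 0.0091 to 0.038. The last 4 calls rested on few libraries, and without the first E. coli + ACs library only Marco remained past the threshold. IFN-γ + ACs against E. coli + ACs gave 5 of 8 members, against 16.6% of all genes, with Marco (2.63 ± 0.16), Cd36 (2.02 ± 0.34), Cd68 (1 ± 0.18) and Cd5l (1.06 ± 0.28) higher and Olr1 lower (-1.16 ± 0.31). Without the second IFN-γ + ACs library the calls for Cd5l and Olr1 were lost.

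Ordered by mean, Marco ran IFN-γ + ACs, combination, ACs alone and E. coli + ACs, and only the last neighbours did not differ past the threshold. Cd36 and Cd68 both ran IFN-γ + ACs, ACs alone, E. coli + ACs and combination, with the first neighbours not past the threshold. Olr1 ran combination, E. coli + ACs, IFN-γ + ACs and ACs alone, where only the middle neighbours differed (1.16, limma, adjusted p = 0.01). Msr1 differed only between its lowest neighbours, E. coli + ACs and the combination, and Cd163 only between its highest, ACs alone and E. coli + ACs. For Stab1 and Cd5l no neighbours differed past the threshold.

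Whether IFN-γ and E. coli together gave more or less than the sum of their log2 changes was tested as an interaction, which was past the threshold for 1 of 8 members, against 7.44% of all genes. This was Marco, at -0.86 ± 0.22 (limma, adjusted p = 0.022), so that the combination stood below the sum of the separate IFN-γ and E. coli changes. The call was lost in 5 of 12 fits with 1 library left out, without replicate 2 or 3 of ACs alone, replicate 1 or 3 of E. coli + ACs or replicate 2 of IFN-γ + ACs (adjusted p from 0.054 to 0.079), and in the fit of all 18 libraries (0.068). For Cd36 the interaction was -1.53 ± 0.49 (adjusted p = 0.062) and for Cd68 -0.77 ± 0.25 (0.067), both past the threshold in DESeq2 at 0.021 and 0.035.

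The IL-4 change was then set against the IFN-γ change, each relative to the ACs of its own experiment. It differed for 2 of 9 members, against 14.3% of all genes. For Marco the IL-4 change was lower by 4.74 ± 0.27 on the log2 scale (limma, adjusted p = 1.6e-10), from a fall with one and a rise with the other. For Cd163 it was higher by 3.36 ± 0.96 (adjusted p = 0.02), and without the second ACs library of the Type 1 experiment the adjusted p was 0.061. Against the change with IFN-γ + E. coli, 5 of 9 members differed, against 20.4% of all genes. The IL-4 change was higher for Cd163 (4.73 ± 0.96), Cd36 (2.7 ± 0.47) and Cd68 (1.22 ± 0.27) and lower for Marco (-3.41 ± 0.27) and Olr1 (-1.31 ± 0.43), with adjusted p-values from 1e-08 for Marco to 0.035 for Olr1. The call for Olr1 was lost when any of 7 libraries was left out (adjusted p from 0.058 to 0.084), with no filter (0.086) and after upper-quartile rescaling (0.054).

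The experiments themselves differed with ACs alone, where 2 of 9 members were past the threshold, against 19.2% of all genes. Cd5l was higher in the IL-4 experiment by 2 ± 0.29 (limma, adjusted p = 0.001) and Olr1 by 1.46 ± 0.3 (adjusted p = 0.0073). The groups compared are the same treatment, and the experiment and its batch cannot be told apart, so levels were not compared across experiments otherwise.

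The members were also set against the macrophage sum, which was 0.631 times that of ACs alone with E. coli + ACs, 1.51 times with IFN-γ + ACs, 0.589 times with the combination and 0.782 times with IL-4 + ACs. Of the 13 macrophage markers tested, 6 were lower and none higher with E. coli + ACs. IFN-γ + ACs gave 5 higher and 1 lower, the combination 2 higher and 7 lower, and IL-4 + ACs 1 lower. Over all genes, 5.05% were higher and 5.25% lower with E. coli + ACs, and 11.4% and 9.96% with IFN-γ + ACs. These shares were 14.7% and 17.2% with the combination, and 0.74% and 0.347% with IL-4 + ACs. Where limma called none higher, 1 was so at an unadjusted p under 0.05 with E. coli + ACs (0 in edgeR and DESeq2) and 1 with IL-4 + ACs (1 in each). The marker Vsig4, a complement receptor of resident macrophages, was lower in all 4. Adgre1, which eosinophils also express, was among those higher with the combination, and Apoe is shared with the lipid list.

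Per 1000 of the sum, a description with no test, Marco was at 19.8 to 24.1 with ACs alone, 59.3 to 69.1 with IFN-γ + ACs and 62.1 to 69.5 with the combination, ratios of means of 2.97 and 3.01, and in the IL-4 experiment at 17.7 to 19.4 with ACs alone and 3.51 to 4.59 with IL-4 + ACs, a ratio of 0.216. On that scale the libraries with IFN-γ alone and with E. coli besides overlapped. Olr1 was at 0.74 to 1.03 with ACs alone, 3.2 to 5 with E. coli + ACs and 6.81 to 9.01 with the combination, ratios of 4.87 and 8.73. Its ratio with IL-4 + ACs was 2.65. Cd163 had ratios of 0.244 (E. coli + ACs), 0.067 (IFN-γ + ACs) and 0.027 (the combination), and Cd36 had 0.534 with E. coli + ACs and 0.296 with the combination, all with ranges apart from ACs alone. With E. coli + ACs, Cd68 (0.848) lay below and Msr1 (1.1) above ACs alone with ranges apart, and Cd5l (0.898) overlapped it. With the combination Cd68 (0.569), Cd5l (0.65) and Msr1 (0.751) were all below ACs alone with ranges apart. Msr1 (0.645) and Cd68 (0.713) were so with IFN-γ + ACs, and Msr1 (0.73) with IL-4 + ACs. Stab1 and Scarb1 overlapped ACs alone with every stimulus on this scale.

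**Figure D3:**
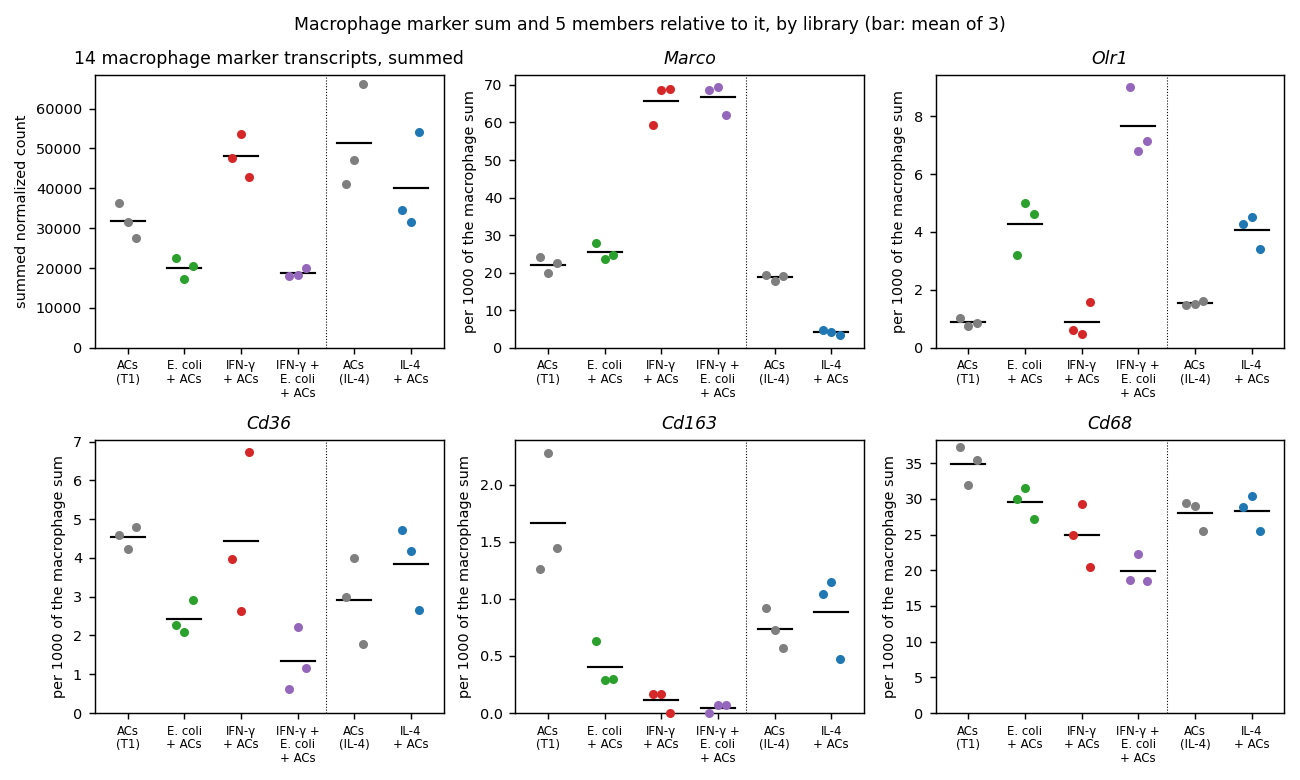
The summed normalized count of 14 macrophage markers by library (first panel) and 5 members per 1000 of that sum (other panels, vertical axes from 0), with groups on the horizontal axes, replicates 1 to 3 from left to right and a bar at the mean of 3. Marco is at 59.3 to 69.5 in all libraries with IFN-γ, and Olr1 is at 6.81 to 9.01 with IFN-γ + E. coli + ACs.

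Other scavenger receptors were examined as a list of 20 genes, 11 of them tested with the Type 1 stimuli and 12 with IL-4. E. coli + ACs gave 2 higher and 2 lower, beside 5.05% and 5.25% of all genes, with a median log2 change of 0.29 over those tested. Mrc1, the macrophage mannose receptor, changed by -3.25 ± 0.55, Lrp1, a receptor for apolipoprotein E and apoptotic cells, by -1 ± 0.21, and Cd14, which binds lipopolysaccharide, by 0.92 ± 0.12. IFN-γ + ACs gave 2 higher and 1 lower, beside 11.4% and 9.96% of all genes, with a median of 0.45. Mrc1 changed by -2.82 ± 0.55, Cxcl16, a membrane-bound chemokine and receptor for oxidised lipoprotein, by 1.74 ± 0.2, and Lrp1 by 0.79 ± 0.21.

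With the combination, 4 of the list were higher and 1 lower, beside 14.7% and 17.2% of all genes, with a median of 0.11. Among them were Mrc1 at -3.67 ± 0.55 and the hyaluronan receptor Cd44 at 1.28 ± 0.15. With IL-4 + ACs, 2 were higher and none lower in limma, beside 0.74% and 0.347% of all genes, with a median of -0.21. At an unadjusted p under 0.05, limma gave 1 lower, and edgeR and DESeq2 called 0. Mrc1 rose by 1.81 ± 0.23 (limma, adjusted p = 0.0047), from 38.2 to 53.6 with ACs alone to 144 to 186, and Clec7a, the beta-glucan receptor dectin-1, rose by 1.77 ± 0.31 (adjusted p = 0.028). Mrc1 thus went down with every Type 1 stimulus and up with IL-4, whereas Marco was lower with IL-4 and higher with both stimuli that held IFN-γ.

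**Figure D4:**
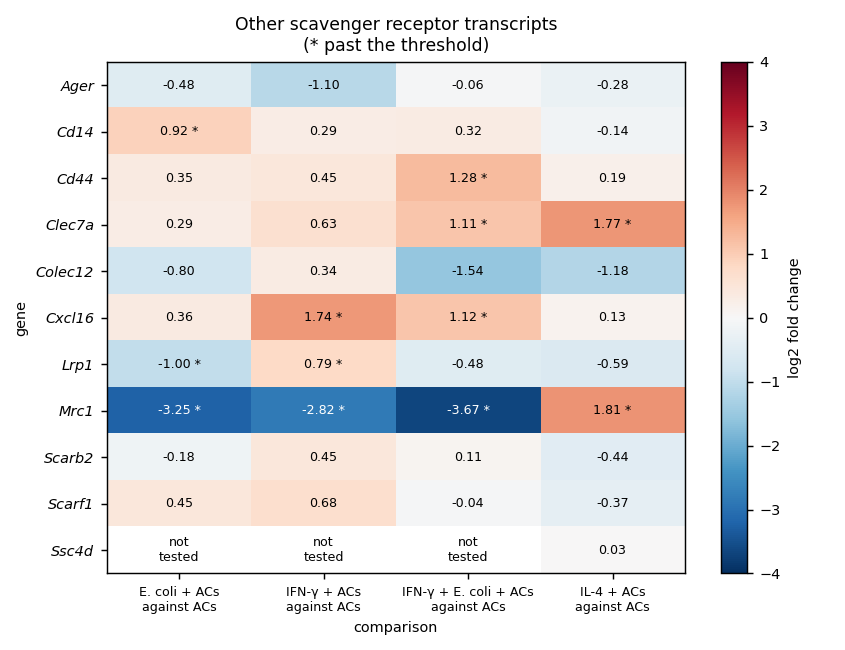
Log2 fold change against ACs alone of the same experiment for 11 of the 12 other scavenger receptor transcripts tested (rows) in 4 comparisons (columns), coloured from blue (lower) to red (higher), with a star where past the threshold. Mrc1 is lower in the 3 Type 1 comparisons (-3.25, -2.82 and -3.67) and higher with IL-4 + ACs (1.81).

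Genes of lipid loading and efflux, which handle the cargo of these receptors, were examined as a list of 20, with 18 tested with the Type 1 stimuli and 19 with IL-4. Over all genes, 11.4% were higher and 9.96% lower with IFN-γ + ACs, and 5.05% and 5.25% with E. coli + ACs. These shares were 14.7% and 17.2% with the combination, and 0.74% and 0.347% with IL-4 + ACs. With IFN-γ + ACs, 10 were higher and none lower, with a median of 0.67, led by the cholesterol exporter Abca1 (1.48 ± 0.16), the lysosomal lipase Lipa (1.46 ± 0.15) and lipoprotein lipase Lpl (1.45 ± 0.19). With E. coli + ACs, none was higher and 2 were lower, the fatty acid binding protein Fabp5 (-1.34 ± 0.24) and the lysosomal protease Ctsl (-1.31 ± 0.15), with a median of -0.07. With the combination, 4 were higher and 3 lower, with a median of -0.03, and the largest changes were in Ctsl (-1.91 ± 0.15), the cholesterol ester hydrolase Nceh1 (-1.27 ± 0.2) and Abca1 (0.95 ± 0.16). With IL-4 + ACs none of 19 passed in limma in either direction, with a median of -0.07, where 3 were lower and 0 higher at an unadjusted p under 0.05, and edgeR and DESeq2 each called 2 lower and 0 higher. For the other counts of 0 in this list, limma at an unadjusted p under 0.05 gave 1 higher gene for E. coli + ACs and 1 lower gene for IFN-γ + ACs, and edgeR and DESeq2 gave 0.

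Patterns across libraries are given as a description, since libraries of a group share their treatment and depth. Over the 12 Type 1 libraries, the log2 levels of Cd68 and Cd5l had a Pearson r of 0.96, and over the 6 IL-4 libraries 0.98. Cd68 and Olr1 had -0.93 and -0.22. Cd36 and Cd68 had 0.89 and -0.19, and Marco and Msr1 0.15 and 0.92. Of the 6747 genes whose mean over the Type 1 libraries was 50 or more, among those most like Marco there were Ly6a (r = 0.989), the peroxiredoxin Prdx6 (0.987), coagulation factor F10 (0.986) and the apoptotic cell receptor kinase Axl (0.982), with r over the 6 IL-4 libraries of 0.72, 0.988, 0.796 and 0.542. The genes most like Olr1 were Rcn1 (0.968), Arid3a (0.96), Lcp1 (0.96), Dhrs9 (0.958) and Tbc1d1 (0.953), of which Dhrs9 alone had an r above 0.4 in the IL-4 libraries (0.9).

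Those most like Msr1 were Fabp7 (0.968), thrombomodulin Thbd (0.941), the selenium carrier Selenop (0.935), Eps8 (0.926) and Pepd (0.926). Those most like Cd36 were Fbxo31 (0.962), Rab7b (0.935), Ms4a8a (0.928), Cebpa (0.927) and Tmem86a (0.925). Cd68 was matched by Tns1 (0.979), the lysosomal protein Ctsa (0.978), Dusp3 (0.97), transferrin Trf (0.967) and Ctsl (0.965). Cd5l was matched by Cd68 (0.957), Tns1 (0.949), Ctsl (0.943), Dag1 (0.939) and 1110008P14Rik (0.939). Stab1, Cd163 and Scarb1, with means under 50, were not searched for.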

How the data were processed

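CEL-Seq2 libraries, which count the 3' ends of transcripts, were sequenced by the authors from 18 eosinophil cultures. The values deposited by the authors are a signal, namely the read count of a gene over the size factor of its library. The submitters' processing notes name cutadapt 1.10, TopHat2 2.1.0, HTSeq 0.6.1 and DESeq2 1.26.0 with GRCm38, whereas the methods also describe another aligner, and which made the table is not given in the sources used here. Values were whole multiples of 1 step per library, and whole reads were recovered for 100.0% of values (tolerance 0.0051). Identifiers matched a symbol for 54409 of 54446 genes. The members and lists were chosen with earlier results of these data known.

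Comparisons were fitted with limma 3.58.1 (lmFit, eBayes with a trend) in R 4.3.3 on log2(normalized count + 1), for genes with a mean of at least 10 over the libraries of the fit. The 12 Type 1 libraries, the 6 IL-4 libraries, the 6 libraries with ACs alone, and all 18 for differences between IL-4 and Type 1 changes made a fit each, with no covariate. The threshold was an adjusted p under 0.05 and 1.5-fold. No two-sided exact permutation test of 3 against 3 can give a p below 0.1. Because the values are normalized, the study's DESeq2 test was an alternative (DESeq2 1.42.0, on the reads), as were edgeR 4.0.16, a pseudocount of 5, no filter, a mean of at least 50, an upper-quartile rescaling, array weights, the replicate block, 1 fit of 18 libraries and each library left out. All 9 members were named, with up to 3 genes per list and comparison (those with the largest change past the threshold) and the 5 genes with the highest r to a member. Of the genes this rule named, 2 are not reported here. As a check of pairing by replicate number, deviations from group means were correlated. Same-numbered libraries of IFN-γ + ACs and IFN-γ + E. coli + ACs had r of 0.169 to 0.245 in all 3 pairs, against -0.162 to 0.02 in the 6 other pairs. E. coli + ACs and IFN-γ + ACs separated the other way, with -0.125 to -0.111 in same-numbered pairs and 0 to 0.125 in the others. With 3 same-numbered pairs for any 2 groups, these values cannot decide pairing, and the labels state none. Between replicates the chi-square per degree of freedom was 4.19 to 14.7, above counting error. On simulated data with 200 genes changed 4-fold, limma recovered 99% in the E. coli design, 91.5% in the interaction and 88.5% in the IL-4 design, with 3, 5 and 1 false calls. The changed genes were drawn above a minimum mean, and the dispersion was assumed rather than estimated from these libraries. Recovery of genes with the lowest means and of changes near 1.5-fold was not examined. Tables were made with Python 3.11.15, pandas 2.3.3 and scipy 1.17.1, and figures with matplotlib 3.10.9.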

Additional observations from a re-analysis of the deposited data

Results flagged for a closer look

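These results drew attention because the response of a transcript differed between stimuli by a test of that difference in limma. The interaction of IFN-γ and E. coli was -0.86 ± 0.22 on the log2 scale for Marco (adjusted p = 0.022). The IL-4 change minus the IFN-γ change was -4.74 for Marco and 3.36 for Cd163. The IL-4 change minus the change with IFN-γ + E. coli was -3.41 for Marco, 2.7 for Cd36, 1.22 for Cd68, -1.31 for Olr1 and 4.73 for Cd163. For Marco all 3 libraries with IL-4 + ACs were below, and all 3 with IFN-γ + ACs above, the ACs libraries of their own experiment. For Cd163 the fall with IFN-γ + ACs rested on 14 reads against 182, and in the IL-4 experiment the libraries of replicate 3 held 7 (ACs alone) and 5 (IL-4 + ACs).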

How the results depend on the processing

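Against ACs alone, the members called with IFN-γ + E. coli + ACs numbered 6 to 7 under every alternative run, those with E. coli + ACs 3 to 5, and those with IFN-γ + ACs 2, except 1 at a mean of at least 50, which removed Cd163. With IL-4 + ACs the count of 1 became 3 with no filter, array weights, edgeR, DESeq2 or without both replicate 3 libraries (an alternative chosen after seeing the data), 2 in the fit of 18 libraries, and 1 to 3 with 1 library left out. IFN-γ + E. coli + ACs against E. coli + ACs gave 3 with no filter and 1 to 6 with 1 library left out, and IFN-γ + ACs against E. coli + ACs gave 3 to 6. The interaction gave 2 at a mean of at least 50, 3 with array weights or DESeq2, 0 in the fit of 18 libraries and 0 to 2 with 1 library left out. IL-4 against IFN-γ gave 1 with no filter or a mean of at least 50, 4 with array weights and 1 to 3 with 1 library left out.

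Of 1931 values of single members under the alternatives, 1817 kept their direction and call, 47 lost the call, 41 gained it and 26 changed sign, all of them members not past the threshold. With 1 library left out the ranges of the values that changed sign here or otherwise were -0.47 to 0.04 for Stab1 with E. coli + ACs, and -0.22 to 0.12 for Msr1, -0.11 to 0.31 for Cd68 and -0.02 to 0.67 for Olr1 with IFN-γ + ACs. They were -0.05 to 0.28 for Cd36 and -0.25 to -0.01 for Cd163 with IL-4 + ACs, where leaving out both replicate 3 libraries gave -0.04 and 0.01. They were -1.53 to 0.14 for Cd163 with IFN-γ + ACs against E. coli + ACs, and -0.25 to 0.08 for Cd36 between the 2 groups with ACs alone. For Scarb1 they were -0.39 to 0.27 in the IL-4 change against that with IFN-γ (0.03 with array weights) and -0.02 to 0.73 against that with the combination. Cd163 in the interaction changed sign in edgeR (-0.03) and DESeq2 (-0.15). The causes were not tested.

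For the other groups compared, r between same-numbered libraries was -0.125 to 0.115 in the Type 1 and 0.006 to 0.064 in the IL-4 experiment. The 6 other pairs of the IL-4 experiment had -0.127 to 0.149. With 3 same-numbered pairs per comparison, these values cannot decide whether the numbers pair those libraries. In the IL-4 experiment both replicate 3 libraries were also the shallow ones. For the combination against IFN-γ + ACs, same-numbered libraries did deviate together, but 3 pairs cannot decide pairing there either. There the replicate block in a fit of those 6 libraries (chosen after seeing the data) left the count at 7 with limma's adjusted p up to 0.03. Without the block it was 7. With the replicate block in the planned fits the call changed for Msr1, IL-4 against IFN-γ (-0.75, adjusted p = 0.045), and over all genes with IL-4 + ACs 79 higher and 37 lower became 45 and 29. Those counts were also 125 and 83 with no filter, 127 and 85 in edgeR, 128 and 81 in DESeq2, 389 and 356 with array weights, 116 and 105 in the fit of 18 libraries, 329 and 294 without both replicate 3 libraries, and 31 to 45 and 16 to 21 without a replicate 1 or 2 library. The interaction over all genes went from 321 and 435 to 178 and 261 without ACs replicate 3 and 162 and 239 without E. coli + ACs replicate 1, and IL-4 against IFN-γ from 643 and 843 to 1142 and 1281 with array weights. The groups with ACs alone went from 1134 and 904 to 758 and 508 without Type 1 replicate 3. Rescaling to a common upper quartile shifted the median of all genes with IFN-γ + E. coli + ACs from -0.05 to -0.18 and the calls there from 1494 higher and 1746 lower to 1155 and 2200. It moved IFN-γ + E. coli + ACs against E. coli + ACs from 995 and 973 to 769 and 1352, and IL-4 against the combination from 1007 and 1121 to 1268 and 870. For IL-4, replicate 3 was shallow enough that 3 reads equal a normalized count of 15.4 or 16.1, which limits Scarb1 and Cd163.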
